A study of Mus musculus with 29 samples.

Results

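Semaphorins, plexins and neuropilins were examined in retinas of 5 mouse strains at 2 ages. The genes were taken by symbol, as every semaphorin of classes 3 to 7, every plexin and both neuropilins that a probe set of the arrays names alone. No measured value entered this rule, although earlier results of these data were known when it was chosen. This gave 31 genes of the 18194 with a MAS5 signal, namely 20 semaphorins, 9 plexins and 2 neuropilins. They are covered by 78 probe sets. Of the 31 genes, 26 have an RMA value and stand among 12349 genes that have one. Plxnb2, Plxnb3, Sema4d, Sema6b and Sema6c have MAS5 signals only.

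Retinas of NOD.NON-H2-nb1, AKR/J, RD7, CAST/EiJ and C57BL6/J mice were collected at P30.5, a month after birth, and at E18.5, shortly before birth, and Affymetrix arrays measured their RNA. AKR/J and NOD.NON-H2-nb1 are albino strains, CAST/EiJ is a wild-derived strain of another mouse subspecies, and RD7 is a line with an inherited retinal degeneration whose mutated gene was not analysed here. No group received a treatment. Each of the 29 arrays held RNA pooled from 10 retinas, so replicates are pools rather than single mice, and 10 groups held 3 arrays each apart from AKR/J at E18.5 with 2.

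Semaphorins are secreted or membrane-bound cues that steer growing axons, dendrites and migrating cells, mostly by repulsion. Plexins are their receptors on the cell surface and pass the signal to small GTPases inside the cell. Most class 3 semaphorins, which are secreted, cannot bind a plexin on their own and use neuropilins as the binding partner, whereas semaphorins of classes 4 to 7 bind plexins directly or, for Sema7a, an integrin or PlexinC1. In the retina these cues are known for guiding ganglion cell axons, for placing the neurites of amacrine and bipolar cells in their layers of the inner plexiform layer, and for the growth of retinal vessels.

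RMA values are on a log2 scale, so that a difference of 1 is a 2-fold change, and they rank samples for one probe set but not one gene against another. Where a gene had more than 1 probe set, that of the highest mean RMA level stands for it. A gene was called in a comparison at an adjusted p under 0.001 with a change of at least 2-fold in limma. Array medians were 6.74 to 6.95 for the RMA values and 91.9 to 135.3 for the MAS5 signals, and replicates of a group correlated at 0.931 to 0.991. Crx, a defining gene of photoreceptors, had MAS5 signals of 9444 to 14875 over the P30.5 arrays and of 1294 to 3996 over the E18.5 arrays, and Rcvrn had 12264 to 19635 at P30.5. Among the E18.5 arrays, lists of genes of other tissue varied widely. The skeletal muscle list (12 of 12 genes measured) averaged 5.65 to 10.76 in NOD.NON-H2-nb1 mice, 11.57 to 11.70 in AKR/J, 7.14 to 10.73 in CAST/EiJ, 6.85 to 11.50 in RD7 and 5.46 to 5.59 in C57BL6/J as mean log2 MAS5 signals, and 4.08 to 6.26 over all P30.5 arrays. Levels of such lists are given again beside results from the same arrays.

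The first question was which of the genes differ between the mature and the embryonic retina. Sema7a was the only one of the 26 called higher at P30.5 in any strain, and it was called higher in all 5. Plxnc1 and Plxnd1 were called lower in all 5 strains. Nrp1, Plxna1, Sema3a, Sema4c, Sema5a and Sema5b were called lower in 4 strains, Plxna3 in 3, and Sema6a and Sema6d in 1 each. In all, 12 of the 26 genes (46.2%) were called in at least 1 strain, and none in opposite directions, beside 33.4% of all 12349 genes with a call in at least 1 strain. Of all genes, 4.84% were called higher and 5.59% lower in all 5 strains.

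By strain, 1 gene was called higher and 10 lower in P30.5 retinas of NOD.NON-H2-nb1 mice, 1 and 4 in AKR/J, 1 and 9 in CAST/EiJ, 1 and 9 in RD7, and 1 and 7 in C57BL6/J. Of all 12349 genes, 10.2% were called higher and 10.2% lower for the NOD.NON-H2-nb1 strain, 10.2% and 10.3% in AKR/J, 8.47% and 10% in CAST/EiJ, 8.52% and 11.7% in RD7, and 10% and 11% in C57BL6/J. The genes called lower were thus 38.5% of the 26 in NOD.NON-H2-nb1 mice, 15.4% in AKR/J, 34.6% in CAST/EiJ, 34.6% in RD7 and 26.9% in C57BL6/J, above the share of all genes each time, and those called higher were 3.85%, below it each time. The median log2 change of the 26 genes was -0.50 in NOD.NON-H2-nb1 mice, -0.82 in AKR/J, -0.82 in CAST/EiJ, -0.79 in RD7 and -0.20 in C57BL6/J, against medians of -0.10 to -0.01 over all genes. The log2 change was negative in all 5 strains for 12 of the 26 genes, positive in all 5 for 3 (Sema7a, Sema3e and Plxna2) and of both signs for 11.

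**Figure D1:**
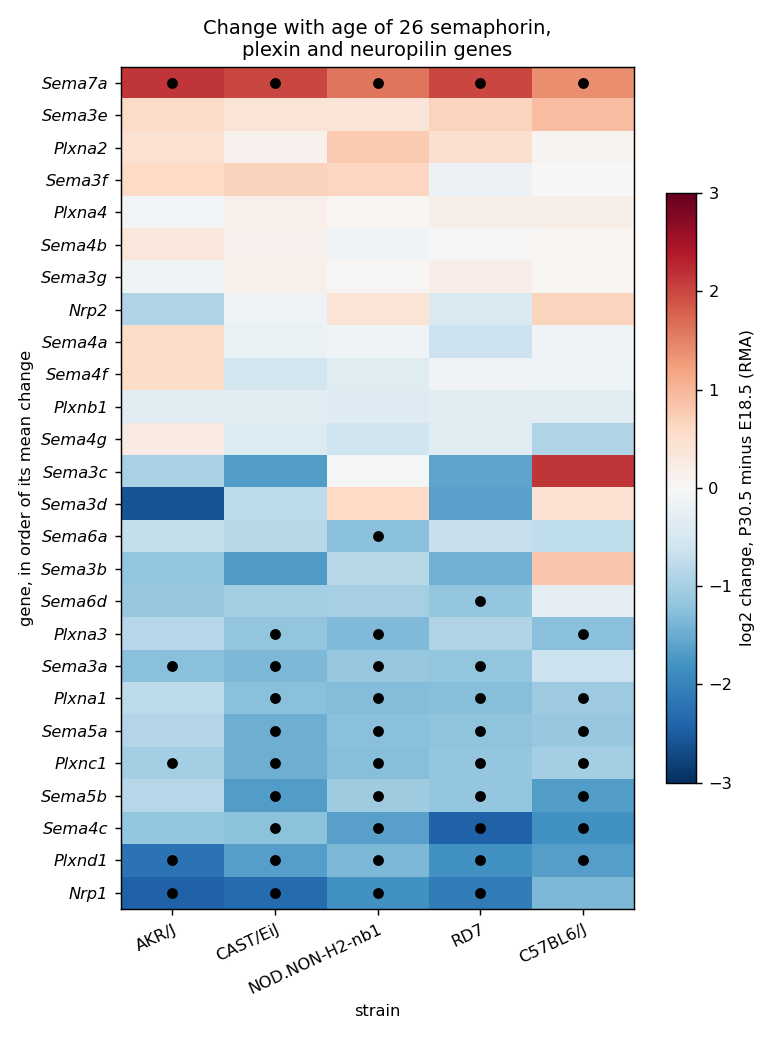
Change with age of the 26 genes with an RMA value, 1 column per strain. Colour gives the log2 change, P30.5 minus E18.5, and a black dot marks a call. Sema7a stands alone at the top with 5 dots, and the lowest 9 rows hold all but 2 of the dots for genes that fell.

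Sema7a, a membrane-anchored semaphorin that signals through integrins and through PlexinC1, separated the ages without overlap in every strain. At P30.5 its RMA values were 9.59, 9.69 and 9.45 in NOD.NON-H2-nb1 mice, 9.36, 9.73 and 9.65 in AKR/J, 10.11, 10.52 and 10.01 in CAST/EiJ, 9.50, 9.79 and 9.88 in RD7 and 9.09, 9.71 and 9.08 in C57BL6/J. At E18.5 they were 7.92, 8.09 and 7.89 in NOD.NON-H2-nb1 mice, 7.46 and 7.42 in AKR/J, 8.12, 8.47 and 8.05 in CAST/EiJ, 7.81, 8.02 and 7.34 in RD7 and 7.75, 8.01 and 7.91 in C57BL6/J. The lowest P30.5 array of any strain was above the highest E18.5 array of any strain. The log2 change was 1.61 in NOD.NON-H2-nb1 mice, 2.14 in AKR/J, 2.00 in CAST/EiJ, 2.00 in RD7 and 1.40 in C57BL6/J, with standard errors of 0.19 to 0.21 and limma adjusted p-values of 4.92e-09 to 1.18e-06. Within single dates of the labels, called array dates here although the labels do not say what was done on them, it was 1.07 to 2.54.

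Plxnc1, a receptor of Sema7a, moved the other way, and is described for that reason, as is Nrp1 among the neuropilins, after its values had been seen. Its log2 change was -1.29 in NOD.NON-H2-nb1 mice, -1.01 in AKR/J, -1.47 in CAST/EiJ, -1.17 in RD7 and -1.03 in C57BL6/J, with standard errors of 0.18 to 0.20 and limma adjusted p-values of 4.60e-07 to 0.000267. The group means at P30.5 lay between 8.75 and 9.04 and those at E18.5 between 9.91 and 10.50. In RD7, 1 E18.5 array had 9.35 and the other two 10.18 and 10.22, and that lowest array was still above all 3 RD7 arrays at P30.5, which had 8.93, 8.73 and 8.60. The 1450905_at probe set of the same gene fell by more, with log2 changes of -2.31 to -1.72 and calls in all 5 strains. In AKR/J the call of 1423213_at rested on the 2-fold limit, since with array date as a replicate block the log2 change was -0.97 (adjusted p = 6.47e-05).

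Plxnd1, a receptor of Sema3e and of other class 3 semaphorins that is best known from blood vessels, was lower at P30.5 in all strains as well. At P30.5 it had 4.95, 4.70 and 4.54 in NOD.NON-H2-nb1 mice, 5.07, 5.37 and 5.06 in AKR/J, 4.82, 4.90 and 4.88 in CAST/EiJ, 5.79, 5.82 and 5.37 in RD7 and 5.27, 5.11 and 5.17 in C57BL6/J. At E18.5 it had 6.53, 5.89 and 5.85 in NOD.NON-H2-nb1 mice, 6.92 and 7.82 in AKR/J, 7.09, 5.93 and 6.50 in CAST/EiJ, 7.12, 7.43 and 7.91 in RD7 and 7.24, 6.45 and 6.83 in C57BL6/J. Every E18.5 array exceeded every P30.5 array of its own strain. The P30.5 means of 4.73 to 5.66 lay under a log2 value of 6, the limit for dim probe sets in an alternative fit. The size of the change is thus less certain than for a brighter gene. The log2 change was -1.36 in NOD.NON-H2-nb1 mice, -2.20 in AKR/J, -1.64 in CAST/EiJ, -1.82 in RD7 and -1.66 in C57BL6/J, with standard errors of 0.27 to 0.30 and limma adjusted p-values of 2.13e-06 to 0.000192. The endothelium list (10 of 10 genes measured) averaged 6.23 to 7.20 as a mean log2 MAS5 signal over the P30.5 arrays and 6.15 to 9.23 over the E18.5 arrays, and its part in the change of Plxnd1 was not tested. In pooled tissue, fewer cells of a type and less RNA per cell cannot be told apart, here and in every comparison that follows.

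**Figure D2:**
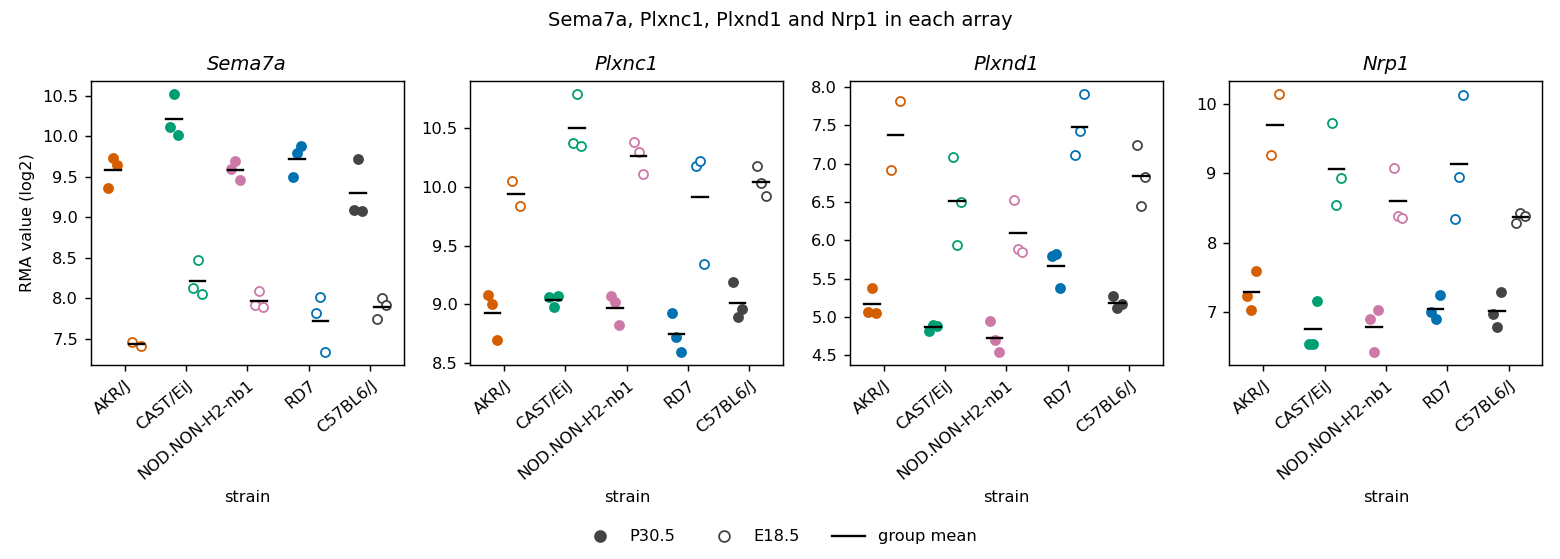
RMA values of Sema7a, Plxnc1, Plxnd1 and Nrp1 in each array, by strain, with P30.5 as filled points left of E18.5 as open points and the group mean as a bar. Sema7a is higher at P30.5 and the other 3 genes are lower, with no overlap between the ages within a strain.

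The promoters of Sema7a, Plxnc1 and Plxnd1, the genes called with age in all 5 strains, are shown together with that of Sema3c, which differed most between strains at E18.5. Each runs 5′ to 3′ on the gene's strand over 300 bases, from 250 before to 50 after a RefSeq transcription start (build GRCm38.p6). They lie at chr9:57939862-57940161 (+) for Sema7a, chr10:94944796-94945095 (-) for Plxnc1, chr6:115994956-115995255 (-) for Plxnd1 and chr5:17574566-17574865 (+) for Sema3c. Capitals mark the GC box GGGCGG, read on either strand, which is the sequence that SP family factors bind.
Sema7a: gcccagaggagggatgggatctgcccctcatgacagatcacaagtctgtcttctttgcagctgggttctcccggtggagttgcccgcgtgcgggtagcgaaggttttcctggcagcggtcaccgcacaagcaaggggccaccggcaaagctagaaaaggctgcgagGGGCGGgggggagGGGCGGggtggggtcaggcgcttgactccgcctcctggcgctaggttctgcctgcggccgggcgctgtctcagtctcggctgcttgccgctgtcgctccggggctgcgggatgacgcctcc
Plxnc1: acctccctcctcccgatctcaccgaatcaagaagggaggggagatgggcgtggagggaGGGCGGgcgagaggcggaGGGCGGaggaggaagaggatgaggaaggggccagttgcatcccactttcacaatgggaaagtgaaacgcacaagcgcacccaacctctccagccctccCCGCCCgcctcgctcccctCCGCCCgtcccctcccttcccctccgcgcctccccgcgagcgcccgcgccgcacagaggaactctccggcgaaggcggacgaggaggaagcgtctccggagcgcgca
Plxnd1: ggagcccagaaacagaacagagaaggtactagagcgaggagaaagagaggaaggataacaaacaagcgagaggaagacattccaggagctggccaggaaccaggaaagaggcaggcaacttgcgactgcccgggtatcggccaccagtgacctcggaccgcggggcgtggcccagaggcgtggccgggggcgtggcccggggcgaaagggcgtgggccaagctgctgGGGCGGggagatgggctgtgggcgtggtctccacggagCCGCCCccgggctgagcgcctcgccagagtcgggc
Sema3c: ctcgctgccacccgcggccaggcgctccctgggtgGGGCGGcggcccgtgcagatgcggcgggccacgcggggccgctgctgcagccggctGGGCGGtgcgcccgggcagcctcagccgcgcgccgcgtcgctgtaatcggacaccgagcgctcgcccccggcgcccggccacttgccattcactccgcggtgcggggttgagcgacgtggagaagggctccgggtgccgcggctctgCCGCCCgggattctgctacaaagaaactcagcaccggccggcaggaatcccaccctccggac
The GC box occurred 2 times in the Sema7a window, 4 times in Plxnc1, 2 times in Plxnd1 and 3 times in Sema3c. It was found in 35.7% of all 32851 promoter windows of the table and in 27 of the 37 windows of the 26 of 31 genes (not the same 26 as those with an RMA value) matched by symbol, which were richer in G and C than all windows, with medians of 63.7% and 52.7%. TAATCC, the core that photoreceptor homeobox factors recognise, occurred in 7.06% of all windows and TATAAA in 13.6%, and neither occurred in the 37 windows on either strand. The motifs were chosen after the values had been seen.

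Among the secreted class 3 semaphorins, 1 of 7 was called with age. Sema3a, the classical repellent of axon growth cones, had log2 changes of -1.13 in NOD.NON-H2-nb1 mice, -1.26 in AKR/J, -1.35 in CAST/EiJ, -1.18 in RD7 and -0.65 in C57BL6/J, with standard errors of 0.21 to 0.24 and limma adjusted p-values of 1.63e-05 to 0.0155. It was not called in C57BL6/J, where the 3 E18.5 arrays had 8.40, 8.52 and 8.35 and those of the other strains 8.62 to 9.55. Sema3e, the ligand of Plxnd1, had positive changes of 0.39 to 0.94, the largest in C57BL6/J (adjusted p = 0.000233), below 2-fold throughout. Sema3f, a ligand of Nrp2, had changes of -0.18 to 0.69, and Sema3g of -0.13 to 0.20. Sema3b, Sema3c and Sema3d, for which the strains differed in sign, are described with the strain comparisons.

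Of the class 4 semaphorins, which span the membrane, Sema4c alone of 5 with an RMA value was called. Its P30.5 values were 6.60, 5.93 and 6.77 in NOD.NON-H2-nb1 mice, 6.41, 7.21 and 7.10 in AKR/J, 7.03, 7.19 and 7.22 in CAST/EiJ, 5.48, 5.30 and 6.23 in RD7 and 6.09, 6.80 and 6.63 in C57BL6/J. Its E18.5 values were 7.87, 8.26 and 8.08 in NOD.NON-H2-nb1 mice, 7.70 and 8.42 in AKR/J, 8.04, 8.53 and 8.58 in CAST/EiJ, 7.83, 8.17 and 8.32 in RD7 and 8.27, 8.12 and 8.57 in C57BL6/J. The ages did not overlap in any strain, and the RD7 arrays at P30.5 included the lowest 2 of all. The log2 change was -1.64 in NOD.NON-H2-nb1 mice, -1.16 in AKR/J, -1.24 in CAST/EiJ, -2.43 in RD7 and -1.81 in C57BL6/J, with standard errors of 0.27 to 0.30 and limma adjusted p-values of 6.74e-08 to 0.00303. AKR/J missed the threshold for the adjusted p, and with array date as a replicate block it was called there too. Sema4a, Sema4b, Sema4f and Sema4g had changes of -0.91 to 0.56 and no call.

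Both class 5 semaphorins, membrane proteins with thrombospondin repeats that are known to keep retinal neurites out of the outer retina, were called lower in 4 strains. Sema5b had RMA values of 6.80, 6.10 and 6.52 in NOD.NON-H2-nb1 mice, 7.39, 6.99 and 7.18 in AKR/J, 6.56, 6.06 and 6.68 in CAST/EiJ, 6.98, 6.88 and 6.77 in RD7 and 7.02, 6.57 and 6.60 in C57BL6/J at P30.5. At E18.5 it had 7.74, 7.29 and 7.57 in NOD.NON-H2-nb1 mice, 8.21 and 7.90 in AKR/J, 8.16, 7.98 and 8.15 in CAST/EiJ, 8.35, 8.13 and 7.65 in RD7 and 8.84, 8.05 and 8.34 in C57BL6/J. Its change was largest in C57BL6/J and CAST/EiJ, and the ages did not overlap in any strain. The log2 change was -1.06 in NOD.NON-H2-nb1 mice, -0.87 in AKR/J, -1.66 in CAST/EiJ, -1.16 in RD7 and -1.68 in C57BL6/J, with standard errors of 0.22 to 0.24 and limma adjusted p-values of 7.63e-07 to 0.00574. Sema5a, represented by 1434776_at, had changes of -1.45 to -0.89 and was called in every strain but AKR/J, where it fell by 0.89 (adjusted p = 0.000522). The other two probe sets of Sema5a made 1 call between them, that of 1437422_at in CAST/EiJ with -1.66.

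Class 6 semaphorins are transmembrane ligands of A plexins and set the sublayer in which some amacrine and bipolar neurites stop. Sema6a had log2 changes of -1.24 to -0.68 and a call in NOD.NON-H2-nb1 only, and Sema6d changes of -1.16 to -0.28 and a call in RD7 only. With array date as a replicate block, Sema6d was called in NOD.NON-H2-nb1 mice, AKR/J and CAST/EiJ as well. A call in 1 strain does not show that the strains differ, and none of the 8 interaction values of these 2 genes passed an adjusted p of 0.05.

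Of the 4 A plexins, the co-receptors of class 3 and receptors of class 6 semaphorins, Plxna1 and Plxna3 were called lower at P30.5 and Plxna2 and Plxna4 were not called. Plxna3 had P30.5 values of 7.34, 6.53 and 6.62 in NOD.NON-H2-nb1 mice, 7.39, 7.02 and 6.81 in AKR/J, 7.39, 6.94 and 6.91 in CAST/EiJ, 7.13, 7.30 and 6.62 in RD7 and 6.98, 6.30 and 6.74 in C57BL6/J. Its E18.5 values were 8.37, 7.94 and 8.11 in NOD.NON-H2-nb1 mice, 8.03 and 7.82 in AKR/J, 8.34, 7.97 and 8.47 in CAST/EiJ, 8.11, 7.88 and 7.76 in RD7 and 8.36, 7.68 and 7.73 in C57BL6/J. All E18.5 arrays exceeded all P30.5 arrays of any strain, with up to 7.39 at P30.5 and 7.68 or more at E18.5. The log2 change was -1.31 in NOD.NON-H2-nb1 mice, -0.85 in AKR/J, -1.18 in CAST/EiJ, -0.90 in RD7 and -1.25 in C57BL6/J, with standard errors of 0.24 to 0.27 and limma adjusted p-values of 8.35e-05 to 0.0129. Plxna1 had changes of -1.29 to -0.79, and in C57BL6/J its change was -0.85 with array date as a replicate block, short of 2-fold. Plxna2 had changes of 0.08 to 0.78 and Plxna4 of -0.08 to 0.19. Plxnb1, a receptor of Sema4d, had small negative changes of -0.39 to -0.31 in all 5 strains.

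Nrp1, the binding partner of Sema3a and also a receptor of vascular endothelial growth factor, had the largest fall of the 26 genes in NOD.NON-H2-nb1 and CAST/EiJ. Its log2 change was -1.82 in NOD.NON-H2-nb1 mice, -2.42 in AKR/J, -2.31 in CAST/EiJ, -2.09 in RD7 and -1.35 in C57BL6/J, with standard errors of 0.34 to 0.38 and limma adjusted p-values of 5.89e-06 to 0.0022. The P30.5 means were 6.75 to 7.29 and the E18.5 means 8.37 to 9.71. C57BL6/J, the only strain without a call, had E18.5 arrays of 8.28, 8.43 and 8.39, and its change was -1.35 ± 0.34 (SE, adjusted p = 0.0022). A further probe set, 1448944_at, was called in the same 4 strains with -2.75 to -1.62. The E18.5 arrays of RD7 had Nrp1 values of 8.34, 8.95 and 10.12 beside mesenchyme lists of 7.38, 10.20 and 11.31, and the part of that tissue was not tested. With 6 E18.5 arrays of a high muscle level left out, the change of Nrp1 in RD7 was -1.30, from a single RD7 array at E18.5. That in C57BL6/J was then called with the same size. Nrp2, the binding partner of Sema3b, Sema3c and Sema3f, had changes of 0.40 in NOD.NON-H2-nb1 mice, -0.91 in AKR/J, -0.15 in CAST/EiJ, -0.45 in RD7 and 0.66 in C57BL6/J, and no call.

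Of the 5 genes with MAS5 signals only, Plxnb2 and Sema4d were called lower at P30.5 in some strains. These genes were fitted on MAS5 signals, and the share of all genes called in that fit was not taken. Plxnb2, a receptor of class 4 semaphorins in proliferating neural cells, had log2 MAS5 signals of 8.88 to 10.28 in NOD.NON-H2-nb1 mice, 10.09 to 10.37 in AKR/J, 9.27 to 10.27 in CAST/EiJ, 9.73 to 9.86 in RD7 and 9.16 to 10.12 in C57BL6/J at P30.5. At E18.5 it had 10.53 to 11.24 in NOD.NON-H2-nb1 mice, 11.46 to 11.78 in AKR/J, 11.04 to 11.72 in CAST/EiJ, 10.85 to 11.69 in RD7 and 10.83 to 11.36 in C57BL6/J. The log2 change was -1.48 in NOD.NON-H2-nb1 mice, -1.35 in AKR/J, -1.56 in CAST/EiJ, -1.60 in RD7 and -1.51 in C57BL6/J, with standard errors of 0.31 to 0.35 and limma adjusted p-values of 0.000232 to 0.00425, and AKR/J, the strain with the highest P30.5 signals, had no call. Sema4d, the ligand of Plxnb1, had changes of -1.71 in NOD.NON-H2-nb1 mice, -1.08 in AKR/J, -1.71 in CAST/EiJ, -1.42 in RD7 and -1.79 in C57BL6/J, with standard errors of 0.38 to 0.43 and limma adjusted p-values of 0.000612 to 0.0675, which gave calls in C57BL6/J and CAST/EiJ. In CAST/EiJ the ages overlapped despite the call, with 7.97 to 9.39 at P30.5 and 9.27 to 11.43 at E18.5. In C57BL6/J they did not, with 8.68 to 9.24 and 10.67 to 10.76. Plxnb3, a receptor of Sema5a, and the class 6 semaphorins Sema6b and Sema6c had changes of -1.87 to 2.81 and no call. Against C57BL6/J at either age, the 5 genes had log2 MAS5 differences of -1.48 to 1.05, with no call and a lowest limma adjusted p of 0.283.

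Since the muscle list was higher in some E18.5 arrays than in any P30.5 array, the counts were also taken without the 6 E18.5 arrays whose muscle list averaged above 10, a choice made after the values were seen. These were both AKR/J arrays, 1 of NOD.NON-H2-nb1, 1 of CAST/EiJ and 2 of RD7, and no AKR/J comparison is then possible. The genes called with age were then 8 in NOD.NON-H2-nb1 (11 with all arrays), 9 in CAST/EiJ (10) and 9 in C57BL6/J (8). RD7 was left with 1 E18.5 array, so no count is given for it. Fewer arrays alone can lower a count. In C57BL6/J, whose E18.5 arrays had a muscle list of 5.46 to 5.59, 7 genes were called lower at P30.5 with all arrays. Between the ages the makeup of the retina differed too, since the progenitor list (9 of 10 genes measured) averaged 6.53 to 8.0 at P30.5 and 12.12 to 12.94 at E18.5, and the photoreceptor list (8 of 10) 13.25 to 14.24 at P30.5 and 6.87 to 8.65 at E18.5. The part of these shifts in the changes was not tested.

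The next question was which genes differ between a strain and C57BL6/J at the same age. At E18.5, 3 of the 26 genes were called, all higher than in C57BL6/J. Sema3c, a secreted ligand of Nrp1 and Nrp2, was called in AKR/J, CAST/EiJ and RD7. Sema3b, another secreted ligand of Nrp2, and Nrp2 itself were called in AKR/J and CAST/EiJ. With array date as a replicate block, Sema6d was called higher in AKR/J and CAST/EiJ too. No gene was called in NOD.NON-H2-nb1 mice, and none was called lower in any strain. The 4 comparisons share the same 3 C57BL6/J arrays.

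The genes called higher numbered 0 in NOD.NON-H2-nb1 mice, 3 in AKR/J, 3 in CAST/EiJ mice and 1 in RD7. Of all 12349 genes, 0.364% were called higher and 0.688% lower for the NOD.NON-H2-nb1 strain, 3.69% and 1.24% in AKR/J, 3.17% and 2.79% in CAST/EiJ, and 0.397% and 0.0405% in RD7. At an unadjusted p under 0.05, limma gave 6 of the 26 genes (23.1%, against 12.7% of all genes) in NOD.NON-H2-nb1 mice, 8 (30.8%, against 30.2%) in AKR/J, 11 (42.3%, against 36.5%) in CAST/EiJ, and 8 (30.8%, against 19.2%) in RD7. The median log2 difference of the 26 genes was 0.10 in NOD.NON-H2-nb1 mice, 0.05 in AKR/J, 0.33 in CAST/EiJ mice and 0.10 in RD7. The medians over all genes were -0.04 to 0.11.

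Sema3c had E18.5 values of 8.69, 6.74 and 8.52 in NOD.NON-H2-nb1 mice, 11.0 and 10.63 in AKR/J, 10.88, 8.78 and 8.68 in CAST/EiJ, 8.62, 9.72 and 10.51 in RD7 and 6.0, 6.27 and 5.34 in C57BL6/J. All 11 arrays of the other strains were above all 3 C57BL6/J arrays. The C57BL6/J mean of 5.87 lay under the log2 value of 6 that 1 group mean had to reach for a probe set not to count as dim in an alternative fit, so the size of a difference from it is less certain than for a brighter gene. The differences were 2.11 ± 0.61 (SE, adjusted p = 0.0447) in NOD.NON-H2-nb1 mice, 4.95 ± 0.69 (SE, adjusted p = 2.01e-05) in AKR/J, 3.58 ± 0.61 (SE, adjusted p = 9.13e-05) in CAST/EiJ and 3.74 ± 0.61 (SE, adjusted p = 0.00095) in RD7. The RD7 call ended with array date as a replicate block (3.67, adjusted p = 0.0059). That fit gives no weight to C57BL6/J E18.5 replicate 3, the only array of its date, so fewer reference arrays stand behind it. Within single array dates the differences were 2.25 and 2.69 in NOD.NON-H2-nb1 mice, 4.36 and 5.00 in AKR/J, 2.41 and 4.88 in CAST/EiJ and 4.24 and 2.62 in RD7. The second probe set, 1420696_at, gave 0.40 in NOD.NON-H2-nb1 mice, 1.78 in AKR/J, 1.12 in CAST/EiJ mice and 0.54 in RD7, with no call.

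At P30.5 Sema3c had 8.80, 7.31 and 7.64 in NOD.NON-H2-nb1 mice, 9.55, 9.96 and 10.03 in AKR/J, 7.72, 7.24 and 8.34 in CAST/EiJ, 7.90, 8.82 and 7.35 in RD7 and 9.27, 7.45 and 7.33 in C57BL6/J. AKR/J remained above all C57BL6/J arrays, with a difference of 1.83 ± 0.61 (SE, adjusted p = 0.0829), which was no call, and 1 C57BL6/J array stood near it at 9.27 while the other two had 7.45 and 7.33. The other 3 strains overlapped with C57BL6/J. C57BL6/J was the one strain in which Sema3c was higher at P30.5 than at E18.5, by 2.15 ± 0.61 (SE, adjusted p = 0.00591).

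Sema3b had E18.5 values of 6.45, 6.82 and 8.77 in NOD.NON-H2-nb1 mice, 8.52 and 8.78 in AKR/J, 8.71, 8.28 and 8.33 in CAST/EiJ, 8.04, 7.88 and 9.50 in RD7 and 6.20, 6.0 and 5.70 in C57BL6/J. In NOD.NON-H2-nb1, 1 array at 8.77 lay with those of AKR/J and CAST/EiJ, and the other two lay nearer to C57BL6/J. The C57BL6/J mean of 5.97 was just under the dim limit of 6, as for Sema3c. The differences were 1.37 ± 0.46 (SE, adjusted p = 0.0961) in NOD.NON-H2-nb1 mice, 2.68 ± 0.51 (SE, adjusted p = 0.000613) in AKR/J, 2.47 ± 0.46 (SE, adjusted p = 0.000216) in CAST/EiJ and 2.50 ± 0.46 (SE, adjusted p = 0.00212) in RD7. A second probe set, 1431795_a_at, was also called in AKR/J (1.76) and CAST/EiJ (1.52). With a replicate block for array date, the AKR/J difference was 2.54 (adjusted p = 0.00216), no longer a call. Within single dates it was 0.25 to 2.76 in NOD.NON-H2-nb1 mice, 2.32 to 2.77 in AKR/J, 2.33 to 2.51 in CAST/EiJ, and 1.84 to 3.50 in RD7. At P30.5 the values were 6.95, 6.19 and 6.41 in NOD.NON-H2-nb1 mice, 7.03, 7.56 and 7.80 in AKR/J, 6.20, 6.66 and 7.37 in CAST/EiJ, 6.63, 7.51 and 6.96 in RD7 and 7.38, 6.48 and 6.54 in C57BL6/J, and every strain overlapped with C57BL6/J.

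Nrp2 had E18.5 values of 7.46, 7.35 and 7.31 in NOD.NON-H2-nb1 mice, 8.45 and 9.21 in AKR/J, 9.01, 7.71 and 7.69 in CAST/EiJ, 7.45, 7.92 and 8.49 in RD7 and 6.96, 6.78 and 6.87 in C57BL6/J. All arrays of the other strains again exceeded those of C57BL6/J. The differences were 0.50 ± 0.25 (SE, adjusted p = 0.407) in NOD.NON-H2-nb1 mice, 1.96 ± 0.28 (SE, adjusted p = 3.36e-05) in AKR/J, 1.27 ± 0.25 (SE, adjusted p = 0.000506) in CAST/EiJ and 1.08 ± 0.25 (SE, adjusted p = 0.0119) in RD7. In CAST/EiJ 1 array at 9.01 stood above the other two, and the difference was 0.83 (adjusted p = 0.00479) without it and 1.29 (adjusted p = 0.00252) with array date as a replicate block, with no call in either. The other 3 probe sets of Nrp2 gave differences of 0.80 to 1.48 in AKR/J and 0.08 to 1.11 in CAST/EiJ, all positive and none called. Within single dates the difference was 0.50 to 0.53 in NOD.NON-H2-nb1 mice, 1.49 to 2.42 in AKR/J, 0.91 to 2.05 in CAST/EiJ, and 0.49 to 1.71 in RD7. At P30.5 Nrp2 had 7.74, 7.82 and 7.77 in NOD.NON-H2-nb1 mice, 7.87, 7.97 and 7.91 in AKR/J, 7.89, 7.99 and 8.09 in CAST/EiJ, 7.43, 7.59 and 7.49 in RD7 and 7.50, 7.49 and 7.61 in C57BL6/J, so that only RD7 overlapped with C57BL6/J, though none of the differences was called.

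**Figure D3:**
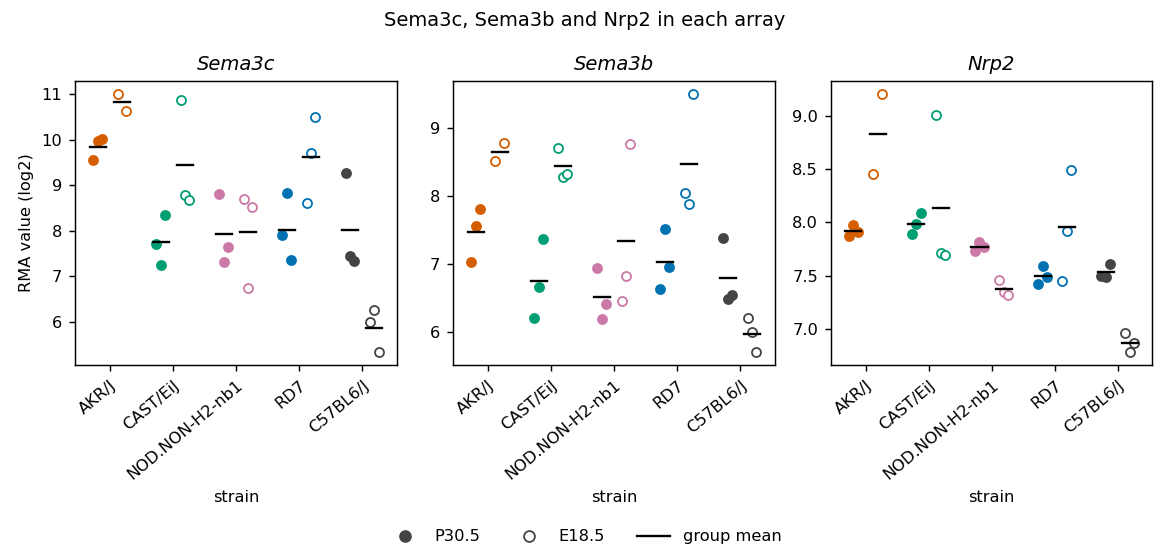
RMA values of Sema3c, Sema3b and Nrp2 in each array, by strain, with P30.5 as filled points left of E18.5 as open points and the group mean as a bar. The 3 C57BL6/J arrays are the lowest of the E18.5 arrays for each gene.

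Sema3d, a further secreted semaphorin, varied among replicates. At E18.5 it had 5.20, 4.77 and 4.11 in NOD.NON-H2-nb1 mice, 7.54 and 7.44 in AKR/J, 7.26, 5.27 and 6.35 in CAST/EiJ, 4.83, 7.68 and 8.18 in RD7 and 4.72, 4.80 and 4.65 in C57BL6/J. AKR/J, with both arrays high, was above C57BL6/J by 2.77 ± 0.60 (SE, adjusted p = 0.00194), which was no call. In CAST/EiJ 1 array and in RD7 2 arrays were above 7, and the others of these strains lay lower. At P30.5 all arrays of the series had 4.78 to 5.81.

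Genes of other tissue varied beside Sema3c, Sema3b, Sema3d and Nrp2 among the 14 E18.5 arrays. The pigment epithelium list (12 of 12 genes measured) averaged 7.67 to 9.40 in NOD.NON-H2-nb1 mice, 9.12 to 9.84 in AKR/J, 9.62 to 9.86 in CAST/EiJ, 9.31 to 9.84 in RD7 and 6.73 to 7.51 in C57BL6/J as mean log2 MAS5 signals. The NOD.NON-H2-nb1 array with 9.40 was the one with the high Sema3b value of 8.77. Of the 12 genes, 7 in NOD.NON-H2-nb1 mice, 9 in AKR/J, 10 in CAST/EiJ mice and 9 in RD7 were above C57BL6/J in all arrays. None of the 12 was at 0. Tyrp1, a pigment enzyme, had signals of 1096 to 5694 in NOD.NON-H2-nb1 mice, 5168 to 7271 in AKR/J, 3924 to 7456 in CAST/EiJ, 4890 to 8438 in RD7 and 484 to 944 in C57BL6/J, but Rpe65, which marks mature pigment epithelium, had signals of only 2.34 to 11.6 over the E18.5 arrays. The mesenchyme list (14 of 16 genes measured, none at 0) averaged 6.02 to 8.99 in NOD.NON-H2-nb1 mice, 11.14 to 11.32 in AKR/J, 7.07 to 10.90 in CAST/EiJ, 7.38 to 11.31 in RD7 and 5.44 to 7.27 in C57BL6/J. The surface epithelium list (8 of 8) averaged 5.80 to 6.93 in NOD.NON-H2-nb1 mice, 9.88 to 10.46 in AKR/J, 6.22 to 10.82 in CAST/EiJ, 6.79 to 11.84 in RD7 and 5.75 to 6.38 in C57BL6/J. The endothelium list averaged 6.27 to 7.46 in NOD.NON-H2-nb1 mice, 8.50 to 9.23 in AKR/J, 6.15 to 8.56 in CAST/EiJ, 7.19 to 8.90 in RD7 and 6.31 to 6.86 in C57BL6/J. The lens list (8 of 9, none at 0) averaged 3.40 to 9.52 in NOD.NON-H2-nb1 mice, 8.79 to 12.38 in AKR/J, 7.22 to 13.84 in CAST/EiJ, 8.84 to 13.20 in RD7 and 3.39 to 8.59 in C57BL6/J, so that AKR/J and RD7 lay above C57BL6/J and the other two strains overlapped with it. In CAST/EiJ the array with the highest Sema3c value, 10.88, had the lowest lens level, 7.22. The same array had the highest CAST/EiJ levels of the other lists. These were 10.73 for muscle, 10.90 for mesenchyme, 10.82 for surface epithelium, 8.56 for endothelium and 9.86 for pigment epithelium. Sema3b did not always rise with such levels. One NOD.NON-H2-nb1 array had the highest muscle (10.76), mesenchyme (8.99) and endothelium (7.46) levels of its strain. That array had the lowest Sema3b value of the strain, 6.45, and the highest Sema3c value, 8.69. The part of these tissues in the differences was not tested beyond the fits that follow.

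With the muscle level as a covariate among the E18.5 arrays, no gene was called in any strain. The difference of Sema3c was then 1.07 (adjusted p = 0.244) in NOD.NON-H2-nb1 mice, 2.46 (adjusted p = 0.0619) in AKR/J, 2.38 (adjusted p = 0.00161) in CAST/EiJ, and 2.02 (adjusted p = 0.0908) in RD7, smaller than without the covariate in all 4. That of Sema3b was 2.51 (adjusted p = 0.207) in AKR/J and 2.39 (adjusted p = 0.017) in CAST/EiJ, and that of Nrp2 0.99 (adjusted p = 0.357) in AKR/J and 0.80 (adjusted p = 0.1) in CAST/EiJ. No E18.5 array of the 4 strains overlaps with C57BL6/J in the muscle level, so strain and level cannot be told apart in this fit. With the pigment epithelium level as a covariate, tried after the values were seen, the difference of Sema3b was 0.03 in AKR/J and -0.43 in CAST/EiJ, that of Sema3c 2.59 in AKR/J and 0.996 in CAST/EiJ, and that of Nrp2 1.80 in AKR/J and 1.09 in CAST/EiJ, with no call. No E18.5 array of the 4 strains overlaps with C57BL6/J in that level either, and the same limit holds. Without the 6 arrays of the highest muscle level, Sema3c (2.86, adjusted p = 0.000961), Sema3b (2.34, adjusted p = 0.000506) and Sema3a were called in CAST/EiJ, where the 2 remaining arrays had muscle lists of 7.14 and 7.50.

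**Figure D4:**
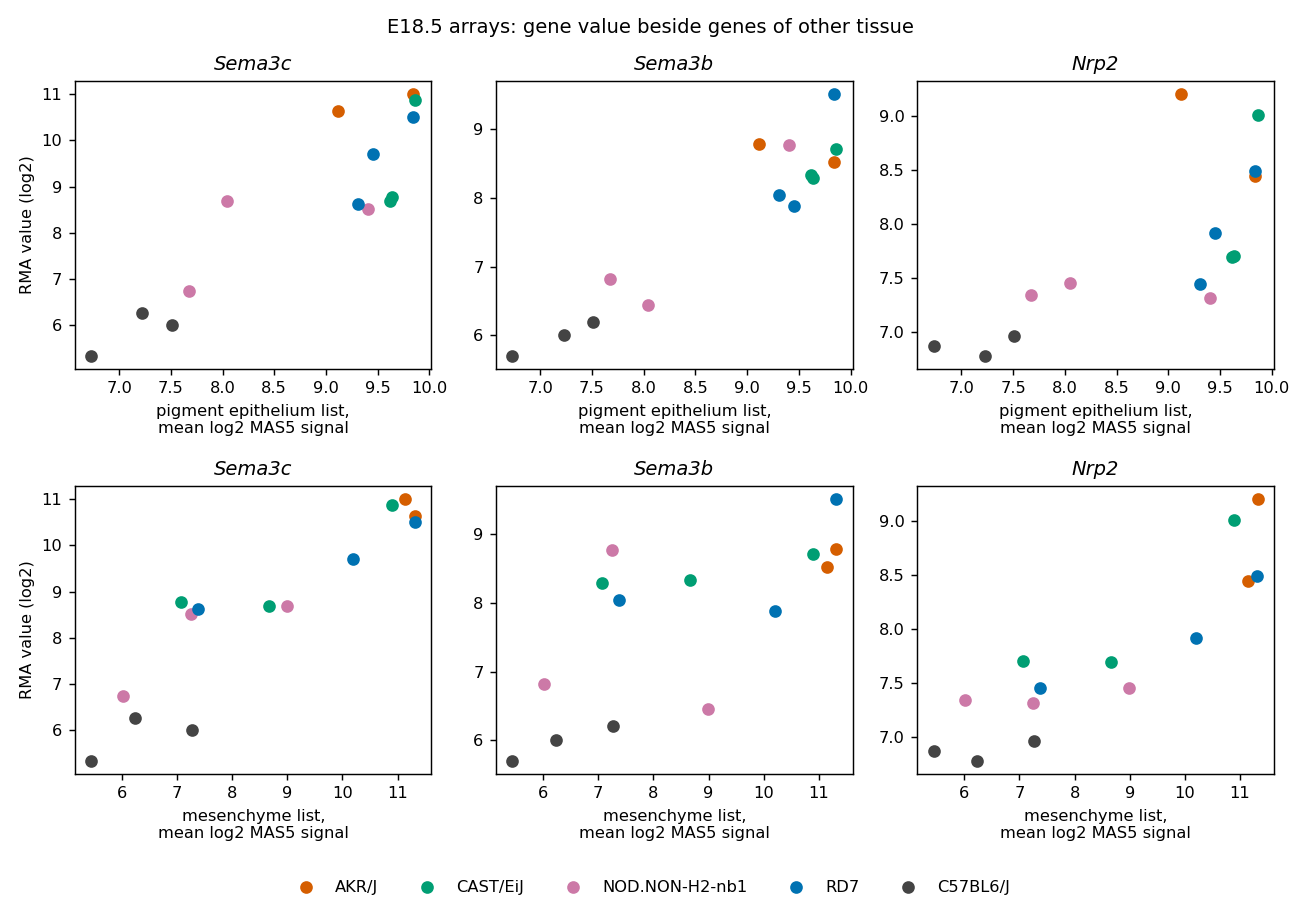
RMA values of Sema3c, Sema3b and Nrp2 in the 14 E18.5 arrays (y axis) against the mean log2 MAS5 signal of the pigment epithelium list (upper row, x axis) and the mesenchyme list (lower row, x axis), coloured by strain. In the upper row the Sema3b points fall into a low set, holding 2 NOD.NON-H2-nb1 arrays and C57BL6/J, and a high set of all others.

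At P30.5 no gene of the 26 was called in any strain by limma. Of all genes, 0.534% were called higher and 0.615% lower for the NOD.NON-H2-nb1 strain, 0.559% and 0.826% in AKR/J, 2.38% and 2.88% in CAST/EiJ, and 0.316% and 0.105% in RD7. At an unadjusted p under 0.05 there was 1 gene (3.85% of the 26, against 14.9% of all genes) in NOD.NON-H2-nb1 mice and 3 (11.5%, against 16.3%) in AKR/J. There were 6 (23.1%, against 33.9%) in CAST/EiJ and 2 (7.69%, against 8.28%) in RD7, the last near the share of all genes. With counts this small, the 26 genes are not shown to differ from all genes. The fit to MAS5 signals called none either. The nearest to a call was Sema7a in CAST/EiJ, with P30.5 values of 10.11, 10.52 and 10.01 against 9.09, 9.71 and 9.08 in C57BL6/J and a difference of 0.92 ± 0.19 (SE, adjusted p = 0.000647), below 2-fold. The strain means of a gene spanned a median of 0.56 log2 units at P30.5 (more than 1 unit in 2 of the 26 genes) and of 0.61 at E18.5 (more than 1 unit in 8).

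Whether a strain difference changed with age was tested as an interaction, the difference from C57BL6/J at P30.5 less that at E18.5. No gene of the 26 was called in limma, where 0.202% of all genes were called for NOD.NON-H2-nb1, 0.275% for AKR/J, 1.03% for CAST/EiJ mice and 0.227% for RD7. At an unadjusted p under 0.05 there were 4 genes (15.4% of the 26, against 9.53% of all genes) for NOD.NON-H2-nb1, 8 (30.8%, against 20.4%) for AKR/J, 6 (23.1%, against 19.6%) for CAST/EiJ, and 6 (23.1%, against 12.9%) for RD7. The most negative value was that of Sema3c in CAST/EiJ, -3.83 ± 0.87 (SE, adjusted p = 0.00827), and the one for RD7 was -3.74 ± 0.87 (SE, adjusted p = 0.0273). Sema3c, Sema3b and Nrp2 had negative values in all 4 strains. The calls at E18.5 and their absence at P30.5 are therefore not shown to differ at the threshold used.

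Some genes gave different answers by probe set. Plxna2, a receptor of class 6 semaphorins, was not called between strains by its representative 1455037_at, yet 1429772_at stood above C57BL6/J in CAST/EiJ by 2.16 ± 0.25 (SE, adjusted p = 3.95e-07) at P30.5 and 1.45 ± 0.25 (SE, adjusted p = 9.44e-05) at E18.5, both calls. The other 3 probe sets gave 0.35, -0.41 and 0.38 at P30.5 and 0.30, -0.69 and 0.37 at E18.5. Sema6d had a like case at E18.5, where the dim 1446536_at was called in CAST/EiJ at 1.45 and the representative gave 0.89 with no call. No gene had probe sets called in opposite directions in 1 comparison.

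**Figure D5:**
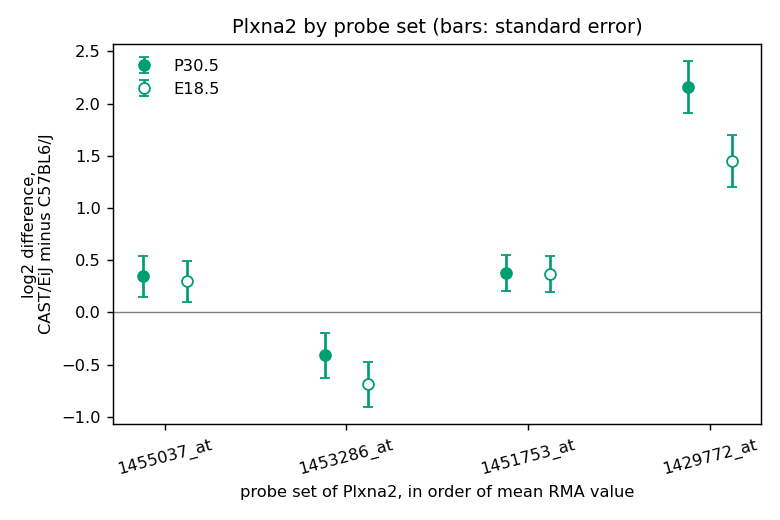
Log2 difference of the 4 Plxna2 probe sets between CAST/EiJ and C57BL6/J at P30.5 (filled) and at E18.5 (open), with standard errors as bars. The probe set 1429772_at lies at 2.16 and 1.45, and the others lie between -0.69 and 0.38.

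Of 48 genes listed as partners of these receptors, among them co-receptors, GTPases, kinases and cytoskeletal effectors, 38 had an RMA value and 14 (36.8%) were called with age in some strain, near the 33.4% of all genes. Farp2, an exchange factor that acts downstream of A plexins, was higher at P30.5 in all 5 strains by 2.62 to 3.75 log2 units. Mical1, an oxidoreductase that disassembles actin filaments when plexins are active, was lower in all 5 with log2 changes of -2.98 to -2.56. Rras2, a relative of the R-Ras GTPase that plexins inactivate, was lower in all 5 with log2 changes of -1.81 to -1.38. The partners called higher and lower were 3 and 7 in NOD.NON-H2-nb1 mice, 1 and 6 in AKR/J, 2 and 7 in CAST/EiJ, 2 and 5 in RD7 and 2 and 5 in C57BL6/J. Their median log2 change was -0.47 to -0.23. Between strains, Rras was higher in AKR/J at E18.5 (1.62, adjusted p = 0.000551), and the axonal adhesion protein gene Cntn2 was higher at E18.5 in NOD.NON-H2-nb1 (1.45, adjusted p = 1.99e-05) and CAST/EiJ (1.48, adjusted p = 3.775e-06), with none at P30.5.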

How the data were processed

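RNA of retina pools was measured on Affymetrix mouse arrays. The authors deposited log2 RMA values (background-corrected, quantile-normalized and summarized per probe set) for 56.4% of the probe sets, and the rule for the rest is not given in the sources used here. They also deposited linear MAS5 intensity values of every probe set. Arrays were grouped by the strain and age in their labels. The members and lists were chosen with earlier results of these data known.

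A limma model (version 3.58.1, R 4.3.3) with 10 group means was fitted to the RMA values of all 29 arrays, which leaves 19 residual degrees of freedom, and p-values were adjusted by Benjamini-Hochberg over all probe sets. Members without RMA values were fitted on log2 MAS5 signals (floor of 1). The labels do not name the litters, so p-values measure the spread between pools, and the number of arrays limits the precision. All members are named. Values by array are given for those called between strains without overlap, for those that rose and fell most with age in C57BL6/J among those called there (at most 4 each way, of which 1 rose), and for Sema3b and Sema3c.

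The labels give a date for each array (4 dates), which pairs arrays. It is called array date here, although the labels do not say what was done on it. Deviations from the group means correlated at a mean of 0.261 between arrays of the same date (120 pairs) and -0.121 between those of different dates (258 pairs). Alternatives were MAS5 signals, median centring, a filter on dim probe sets, other choices of probe set, date as a fixed or random block, fewer arrays, another variance prior, the level of other tissue as a covariate, and each array left out. The procedure was tested on simulated data first.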

Additional observations from a re-analysis of the deposited data

Results flagged for a closer look

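Of 104 interaction values (26 genes in 4 strains, each the difference from C57BL6/J at P30.5 less that at E18.5), 5 had an adjusted p under 0.05 in limma, although none reached the call at 0.001. Sema3c had -3.83 ± 0.87 in CAST/EiJ (SE, adjusted p = 0.00827) and -3.74 ± 0.87 in RD7 (SE, adjusted p = 0.0273). Sema3b had -2.53 ± 0.65 in CAST/EiJ (SE, adjusted p = 0.0207), Sema3d -3.05 ± 0.80 in AKR/J (SE, adjusted p = 0.0296) and Nrp2 -1.57 ± 0.38 in AKR/J (SE, adjusted p = 0.0190). All 5 are negative, with a larger excess over C57BL6/J at E18.5 than at P30.5. The 4 strains share the C57BL6/J arrays of both ages. At E18.5 the group means of the pigment epithelium, mesenchyme and muscle lists were higher in all 4 strains than in C57BL6/J. In the mesenchyme list, some arrays of NOD.NON-H2-nb1 and CAST/EiJ overlapped with C57BL6/J. The part of these lists in the 5 values was not tested. No group held 4 or more arrays, so single arrays were not checked for standing apart.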

How the results depend on the processing

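The counts of genes called with age (11 in NOD.NON-H2-nb1, 5 in AKR/J, 10 in CAST/EiJ, 10 in RD7 and 8 in C57BL6/J) and at E18.5 (1 in RD7, 3 in CAST/EiJ and 3 in AKR/J) moved most with the values and the arrays used. With MAS5 signals they were, with age, 3 in AKR/J, 6 in RD7, 7 in NOD.NON-H2-nb1 and 5 in C57BL6/J, and 1 in CAST/EiJ at E18.5. With only the groups compared, which leaves fewer arrays, they were, with age, 4 in CAST/EiJ, 2 in RD7 and 7 in NOD.NON-H2-nb1, 1 in CAST/EiJ at E18.5, and 1 interaction for AKR/J (Sema3d), as also without the RD7 arrays. The 1 call of RD7 at E18.5 (Sema3c) was 0 with MAS5 signals, with only the groups compared, with array date as a replicate block and with the trend and robust prior. It was also 0 with the mean over the probe sets of a gene and without probe sets that can match several genes, and 2 with array date as a random block. Without the E18.5 arrays of a high muscle level, RD7 had 1 array left at E18.5, and its counts are not given. With the muscle or the pigment epithelium level as a covariate the E18.5 counts were 0 in AKR/J, CAST/EiJ and RD7, and with the pigment epithelium level the Sema3b difference of CAST/EiJ was -0.43. The cause of these shifts was not tested. The paired fit, a replicate block on array date, changed no call other than those of Plxnc1, Plxna1, Sema3b, Sema3c, Sema4c, Sema6d and Nrp2. C57BL6/J E18.5 replicate 3 is the only array of its date and has no weight in that fit. Its comparisons with C57BL6/J at E18.5, and of C57BL6/J with age, thus rest on fewer arrays.

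Leaving out single arrays gave 3 to 5 genes with age in AKR/J, 5 to 9 in C57BL6/J and 6 to 11 in NOD.NON-H2-nb1, and at E18.5 1 to 2 in AKR/J, 0 to 3 in CAST/EiJ and 0 to 3 in RD7. It gave 0 to 1 in CAST/EiJ at P30.5 (Sema7a, without C57BL6/J replicate 2 or CAST/EiJ replicate 3) and 0 to 1 for the RD7 interaction (Sema3d, without E18.5 replicate 1). The lowest counts came without AKR/J P30.5 replicate 3 or either E18.5 array (3 with age; 1 at E18.5 without either E18.5 array), C57BL6/J P30.5 replicate 2 (5), NOD.NON-H2-nb1 P30.5 replicate 2 (6), and P30.5 replicate 3 or E18.5 replicate 1 (7 each). For RD7 at E18.5 the count was 3 without its replicate 1 and 0 without its replicate 2 or 3 or any C57BL6/J array. For CAST/EiJ at E18.5 it was 1 without its replicate 1 or C57BL6/J replicate 2 and 0 without C57BL6/J replicate 3. Among values of single genes, 921 were counted as unchanged, 150 were no longer called, 6 became calls and 1 call was reversed. The 921 include values that were no call at first and changed direction. An example is Sema3b in RD7 at E18.5, which was positive at first and -0.20 with the pigment epithelium level as a covariate.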
